A study of Rattus norvegicus with 24 samples.

Results

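The genes described here are 10 outputs and repressors of the circadian clock, Dbp, Tef, Hlf, Nr1d1, Nr1d2, Per1, Per2, Per3, Ciart and Bhlhe41, out of 30667 genes measured by mRNA sequencing in 24 rat lung samples. They were chosen by name, with their values in all 24 samples by letter and by number already in view, so their own levels are given as a description and not as a test. Each title is a letter followed by a number: the 4 letters A, B, C and G have 6 samples each, and the numbers 1 to 6 have 4 samples each. All 24 samples carry the same label for protocol, smoky coal, and the series is described as a lung cancer model made with it. What the letters and numbers stand for, whether any letter is an untreated control, and the strain, sex, age, light schedule and hour of collection of the rats are not given in the labels. Values are the authors' normalized counts per gene, which sum to between 61717516 and 66007148 per sample; how they were normalized is not given in the sources used here, and the depth before normalization is unknown. The lung label was checked on its markers: the summed level of the alveolar type 2 markers Sftpc, Sftpb and Lamp3 lay between 800865 and 1185585 in every sample. The labels do not say that the samples of a letter came from separate rats, so p-values measure only the spread between these samples.

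The circadian clock is a transcriptional feedback loop that runs in nearly every cell, the lung epithelium included. The activators BMAL1 (gene Arntl) and CLOCK or its relative NPAS2 bind E-box sequences and switch on the Per and Cry genes, whose proteins then shut the activators down. The same activators switch on Nr1d1 and Nr1d2, whose products, the REV-ERB nuclear receptors, repress Arntl, and Dbp, Tef and Hlf, which encode PAR bZIP transcription factors that bind D-box sequences in output genes. In rodent tissues the output and repressor transcripts peak at the opposite side of the day from Arntl and Npas2, and Nr1d1 peaks ahead of Per2.

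Promoters in which a clock motif was found are printed first, because the loop acts through such short sequences. Of the 10 genes, 9 had an entry among the RefSeq promoters of build GRCr8, windows of 250 bases before to 50 bases after the start of transcription, and 4 held the E-box CACGTG, which reads the same on both strands: Tef, Nr1d1 (at the second of its 2 starts), Ciart and Bhlhe41. Hlf was not matched. Over all 33469 promoter windows, 6.42% held it. The variant E-box CACGTT was looked for on both strands and stood in 4.83% of windows, the D-box TTATGTAA in 0.893%, and TAGGTCA, the core of the element through which REV-ERB acts, in 2.63%. CACGTG and CACGTT differ in their last letter and were counted separately, and a match is a description of the letters, not a measured site. Capitals mark the matches in the sequences below, all printed 5′ to 3′ on the strand of the gene.
Ciart, chr2:186112197-186112496, minus strand: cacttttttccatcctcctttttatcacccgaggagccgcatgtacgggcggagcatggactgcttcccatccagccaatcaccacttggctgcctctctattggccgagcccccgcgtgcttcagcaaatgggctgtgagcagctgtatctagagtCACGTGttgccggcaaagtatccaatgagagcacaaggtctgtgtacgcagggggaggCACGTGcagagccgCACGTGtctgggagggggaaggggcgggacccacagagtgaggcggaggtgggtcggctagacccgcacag
Nr1d1, second RefSeq start, chr10:84229405-84229704, minus strand: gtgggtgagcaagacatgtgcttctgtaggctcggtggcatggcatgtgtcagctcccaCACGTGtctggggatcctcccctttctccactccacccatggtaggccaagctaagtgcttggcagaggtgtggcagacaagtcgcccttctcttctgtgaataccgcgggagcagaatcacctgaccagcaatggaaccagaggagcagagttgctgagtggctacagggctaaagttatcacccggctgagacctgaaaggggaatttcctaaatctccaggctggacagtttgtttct
Per2, chr9:99496944-99497243, minus strand: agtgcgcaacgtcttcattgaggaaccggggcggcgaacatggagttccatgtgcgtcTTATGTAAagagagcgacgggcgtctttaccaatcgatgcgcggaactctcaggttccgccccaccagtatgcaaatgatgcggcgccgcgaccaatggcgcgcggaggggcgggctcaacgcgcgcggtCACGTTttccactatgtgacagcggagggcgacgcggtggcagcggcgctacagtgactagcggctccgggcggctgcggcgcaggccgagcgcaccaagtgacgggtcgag
Tef, chr7:115206609-115206654, plus strand: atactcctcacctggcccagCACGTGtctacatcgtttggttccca
Bhlhe41, chr4:180569378-180569423, minus strand: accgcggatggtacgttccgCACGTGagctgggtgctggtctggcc
Arntl (RefSeq symbol Bmal1), chr1:176766078-176766377, plus strand: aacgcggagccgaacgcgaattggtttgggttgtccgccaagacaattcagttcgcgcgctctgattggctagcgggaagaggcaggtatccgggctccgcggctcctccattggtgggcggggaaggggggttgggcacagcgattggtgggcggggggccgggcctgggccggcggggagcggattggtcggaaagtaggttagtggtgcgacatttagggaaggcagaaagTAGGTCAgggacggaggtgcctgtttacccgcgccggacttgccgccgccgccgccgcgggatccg

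The first RefSeq start of Nr1d1, not printed, held CACGTT on the other strand 174 bases before it. Ciart held 3 copies of CACGTG, beginning 93, 35 and 21 bases before its start. Per2 held CACGTT 62 bases and TTATGTAA 192 bases before its start. The Arntl window, shown for contrast, held TAGGTCA 16 bases before the start and neither E-box. The windows of Dbp, Nr1d2, Per1 and Per3 held none of the 4 motifs, which says only that these letters are not in those 300 bases.

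Of the 10 genes, 7 were higher in A4, B4 and C4 than in any of the other 21 samples: Dbp, Tef, Nr1d1, Nr1d2, Per2, Per3 and Ciart. G4 did not share those levels. For Nr1d1, Nr1d2, Per3 and Bhlhe41, the 4 samples numbered 1 were all among the 5 lowest of the 24. Per1 varied more by letter than by number, and Bhlhe41 was highest in the samples numbered 3. The number accounted for a median of 68.6% of the variance of the log2 values of the 10 genes and the letter for 7.91%, beside medians of 37.1% and 9.45% over all genes. Per1 was the exception, with 22.6% between numbers and 51.5% between letters.

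**Figure D1:**
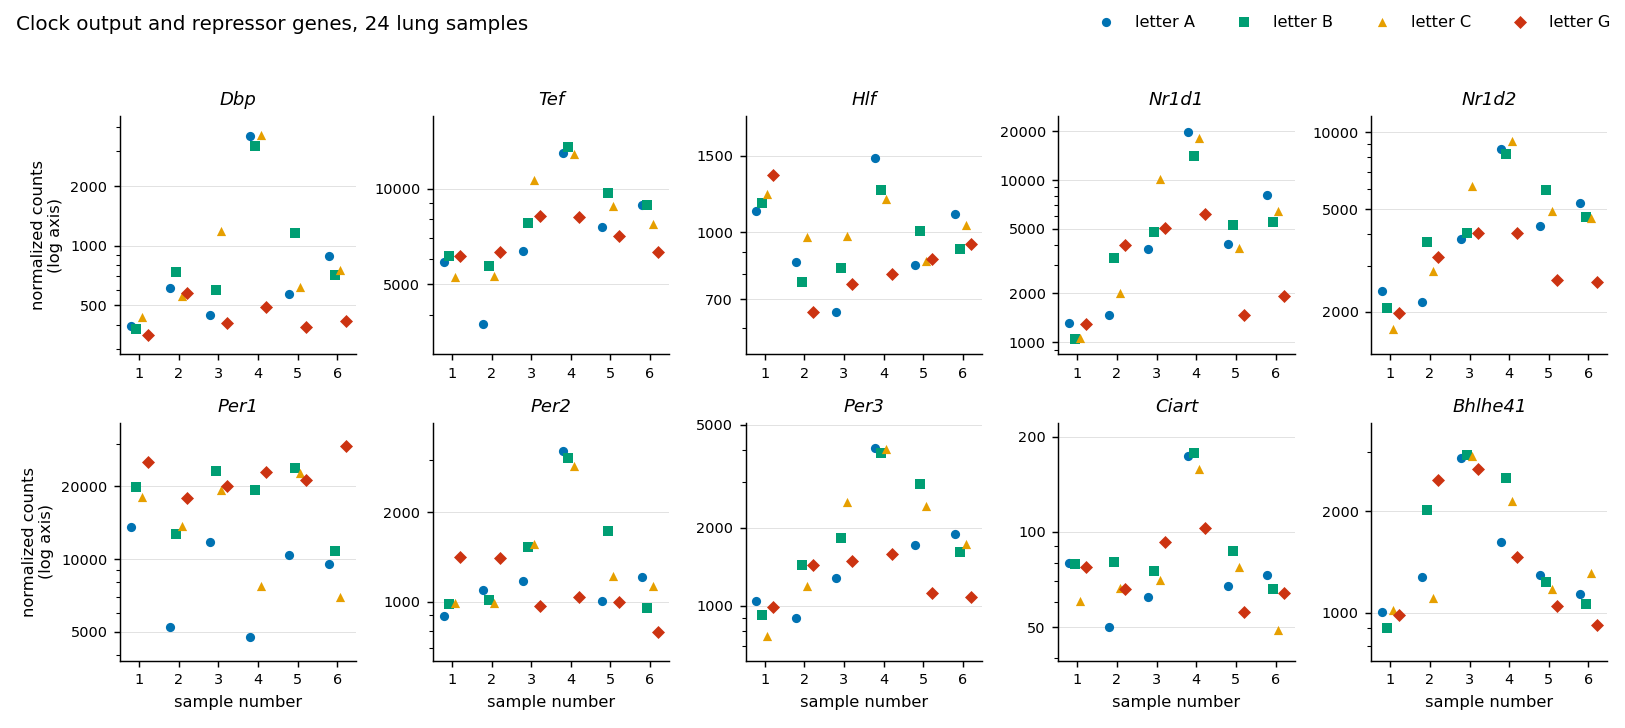
Normalized counts (log axis) of the 10 genes against the sample number, 1 point per sample, with letters A, B, C and G by colour and shape. In 7 of the panels A4, B4 and C4 stand above all other samples, with Dbp at 3198 to 3617 there and 489 in G4.

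The PAR bZIP output genes come first. Dbp, whose transcript swings widely over the day in most tissues, had 3574, 3198 and 3617 normalized counts in A4, B4 and C4 and 489 in G4. In the samples numbered 1 it had 395, 380, 438 and 354 in A, B, C and G. Without number 4, Dbp ran from 395 to 887 in A, from 380 to 1159 in B, from 438 to 1195 in C and from 354 to 577 in G. The letter ranges overlapped, and the medians of those 5 samples were 572, 716, 616 and 410 in A, B, C and G.

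Tef, which encodes the relative of DBP with a flatter daily rhythm, had 12931, 13564 and 12851 normalized counts in A4, B4 and C4 and 8148 in G4. Its lowest sample was A2 at 3755, and the samples numbered 1 lay between 5265 and 6126. The direction was that of Dbp over a narrower range. Hlf, the third gene of the family, went its own way: it was as high in the samples numbered 1 (1120, 1167, 1222 and 1354 in A, B, C and G) as in those numbered 4 (1482, 1249, 1191 and 802). Its lowest values were 654 in A3 and 654 in G2.

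The REV-ERB genes are the repressors of Arntl. Nr1d1 had 1307, 1052, 1057 and 1302 normalized counts in A1, B1, C1 and G1, and 19850, 14053, 18275 and 6138 in A4, B4, C4 and G4. The mean of log2 values over the 4 samples numbered 4 exceeded the mean of the other numbers by 2.13, and that of number 1 fell short of the others by 2.07. In G4 it was below A4, B4 and C4 and still the highest of the G samples, of which the other 5 had a median of 1930. Between those extremes the samples numbered 3 had 3730, 4808, 10146 and 5038, where C3 stood high. Nr1d2, the second REV-ERB gene, had 8577, 8225 and 9246 normalized counts in A4, B4 and C4, 4047 in G4, and 2408, 2056, 1704 and 1969 in the samples numbered 1. Nr1d1 and Nr1d2 tracked each other closely, with a Pearson r of 0.97 over the 24 samples and 0.95 over the 20 that are not numbered 4; these samples share letters and numbers, and r is given as a description.

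The 3 Period genes split. Per3 had 4076, 3879 and 4036 normalized counts in A4, B4 and C4, 1588 in G4, and 1040, 922, 768 and 987 in the samples numbered 1. Per2, a core repressor, had 3199, 3036 and 2861 in A4, B4 and C4 and 1035 in G4. Outside these 3 samples Per2 ran from 792 in G6 to 1726 in B5. Number 1 (896, 985, 991 and 1412 in A, B, C and G) was not set apart from number 2 (1098, 1015, 992 and 1401).

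Per1, which besides its clock role is switched on by glucocorticoids and by cyclic AMP signalling, was low in A4 and C4, where Per2 and Per3 were high, but not in B4. In A4 it had 4751 normalized counts, the lowest of all 24 samples, and in C4 7700, while B4 had 19198 and G4 22878. By letter it ran from 4751 through a median of 9985 to 13620 in A, from 10785 through 19555 to 23807 in B, from 6935 through 15897 to 22585 in C and from 17816 through 22000 to 29302 in G. The G samples all lay above the A samples, and the B and C ranges overlapped both. The pairwise r of Per1 with the other 9 genes over 24 samples lay between -0.45 (Dbp) and -0.03 (Bhlhe41). Over the 20 samples not numbered 4 it lay between -0.26 (Dbp) and 0.56 (Ciart), and changed sign for Tef, Hlf, Per2, Per3, Ciart and Bhlhe41. For Tef, Ciart and Bhlhe41 it was already near 0 over 24 samples (-0.05, -0.08 and -0.03). The negative r of Hlf, Per2 and Per3 (-0.18, -0.26 and -0.22) was not seen without the samples numbered 4.

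Ciart, a repressor of the activator pair whose promoter held 3 E-boxes, had 174, 177 and 158 normalized counts in A4, B4 and C4. G4 had 103, the highest of its letter. The other 20 samples lay between 49.0 in C6 and 92.9 in G3, with number 1 (79.9, 79.4, 60.5 and 77.5 in A, B, C and G) inside that range. Bhlhe41, which encodes the E-box repressor DEC2, had 2879, 2933, 2911 and 2678 in A3, B3, C3 and G3. These 4 were the highest of all 24 samples. Its next highest samples were B4 at 2507, G2 at 2481, C4 at 2146 and B2 at 2013. Numbers 1, 5 and 6 all lay at or below 1315. Of the 10 genes it had the largest share of variance between numbers, 81.7%.

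In the fits over all genes, 0 of the 10 passed the letter test (limma F test, adjusted p under 0.05; 0.00652% of all genes passed), with 1 of the 10, Per1, at an unadjusted p under 0.05 (3.91% of all genes). That fit has no term for the number, so the spread between numbers stays in its residual. With the number as a replicate block, 0 of the 10 passed. There, 4 were at an unadjusted p under 0.05, Dbp, Nr1d2, Per1 and Per3 (9.74% of all genes). In the number test 9 of the 10 passed, all but Per1, where 31.5% of all genes passed. For number 1 against the mean of the other 5 numbers, 1 of the 10 was higher and 6 were lower (5.62% and 6.25% of all genes). For number 2, 0 were higher and 2 lower (11.5% and 10.3%), and for number 3, 1 was higher and 0 lower (2.89% and 2.09%). For number 4, 7 were higher and 0 lower (2.72% and 2.02%), for number 5, 0 either way (0.880% and 1.09%), and for number 6, 0 were higher and 1 lower (4.11% and 4.02%). Because the genes were chosen with these values in view, nothing is read from those counts.

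Each sample numbered 4 was then set against its own letter. A4 was the highest of the 6 A samples for 8 of the 10 genes (18.8% of all genes), B4 of the B samples for 8 (17.0%), C4 of the C samples for 7 (15.3%) and G4 of the G samples for 3 (15.5%), namely Nr1d1, Per3 and Ciart. The ratio to the median of the other 5 samples was 6.25, 4.47 and 5.87 for Dbp in A4, B4 and C4 and 1.19 in G4. For Per2 it was 2.91, 2.99 and 2.54 against 1.04 in G4. For Nr1d1 it was 5.32, 2.92 and 4.83, and 3.18 in G4.

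Each sample was also set against the other letters at the same number. G4 was the lowest of the 4 samples numbered 4 for 9 of the 10 genes (27.3% of all genes) and the highest for Per1. G5 was the lowest of its number for 8 (28.9%) and G6 for 7 (28.3%). At numbers 1, 2 and 3 the G sample was the lowest for 1, 1 and 3 of the 10 (28.0%, 26.5% and 27.4%). For Nr1d1 this meant 1466 in G5 beside 3785 to 5311 in A5, B5 and C5, and 1930 in G6 beside 5496 to 8074 in A6, B6 and C6. Low places were not limited to G. A3 was the lowest of its number for 7 of the 10 (25.2% of all genes) and A2 for 6 (28.6%), in both cases with Tef, Nr1d1, Nr1d2, Per1, Per3 and Ciart among them. The highest places were taken most often by B5 (9 of the 10; 22.2% of all genes), C3 (7; 25.9%) and A6 (7; 25.7%). There is 1 sample per letter and number, so whether the letters differ by number was not tested.

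**Figure D2:**
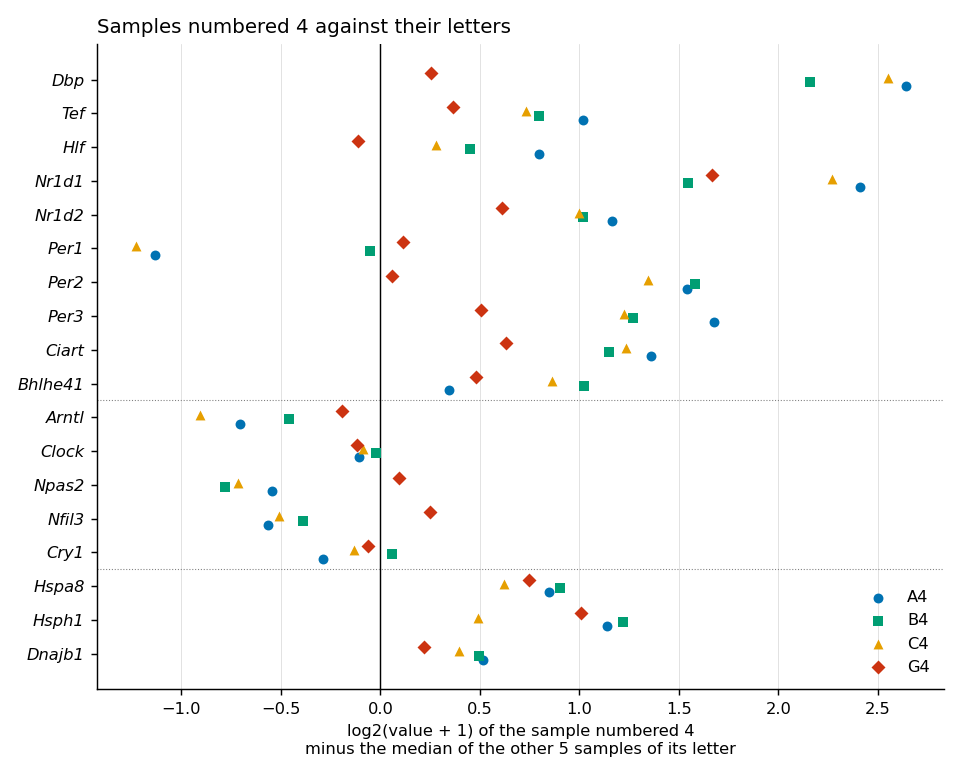
Log2(value + 1) of A4, B4, C4 and G4 minus the median of the other 5 samples of the same letter, for the 10 clock outputs and repressors (top), 5 activators and opposite-phase genes (middle) and 3 chaperone genes (bottom). G4 stands with the others for Hspa8, Hsph1 and Nr1d1, and apart from them for Dbp, at 0.26 beside 2.16 to 2.64, and for Per2.

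The other arm of the loop was followed in 5 genes outside the 10, Arntl, Clock, Npas2, Nfil3 and Cry1. Of these, 5 of 5 passed the number test (limma adjusted p under 0.05, where 31.5% of all genes passed). In the letter test 0 passed (0.00652% of all genes), with 0 at an unadjusted p under 0.05 (3.91%). With the number as a replicate block, 0 passed and 3 were at an unadjusted p under 0.05 (9.74%). In number 1, 3 of the 5 were higher than in the other numbers (5.62% of all genes) and 0 lower: Cry1, which encodes a strong repressor of the activator pair, by 0.73 on the log2 scale (SE 0.10, limma adjusted p = 0.000103), Npas2 by 0.53 (SE 0.10, adjusted p = 0.00179) and Arntl by 0.50 (SE 0.10, adjusted p = 0.00305). In number 4, 2 were lower (2.02% of all genes) and 0 higher, Arntl by -0.56 (limma adjusted p = 0.00416) and Npas2 by -0.50 (adjusted p = 0.00750). The Npas2 call in number 4 was lost without A4, B4 or C4, where the adjusted p reached 0.0810. Clock, whose transcript is nearly flat over the day in most tissues, was lower in number 2 by -0.29 (limma adjusted p = 9.51e-05, where 10.3% of all genes were lower), with 0 calls in the other numbers. Nfil3 was higher in number 2 by 0.45 (11.5% of all genes) and lower in number 5 by -0.58 (1.09%; limma adjusted p = 0.0235 and 0.0364). The first call was lost without A2, B2 or C2, and the second without A5, B1, B5, C3, C5 or G5. Both were lost without a letter term (limma adjusted p = 0.0670 and 0.0838). The numbers 3 and 6 gave 0 calls among the 5, where 2.89% and 2.09% of all genes were higher and lower in number 3 and 4.11% and 4.02% in number 6.

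The values show on which samples these calls rest. Arntl had 4856, 5024, 5008 and 5108 normalized counts in A1, B1, C1 and G1, and 2383, 2449, 2082 and 4443 in A4, B4, C4 and G4. Npas2 had 2137, 1965 and 1914 in A4, B4 and C4 and 4006 in G4. The G4 sample, which lacked the high Dbp and Per2, thus also lacked the low Arntl and Npas2. Arntl was also higher in G5 (5085) and G6 (5309) than in the other letters of those numbers, which lay between 3185 and 4584. Nfil3, which encodes the D-box repressor E4BP4, had 2307 in G6 and 989 to 1226 in A6, B6 and C6, and 1665 in G4 where the other letters had 814 to 935.

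**Figure D3:**
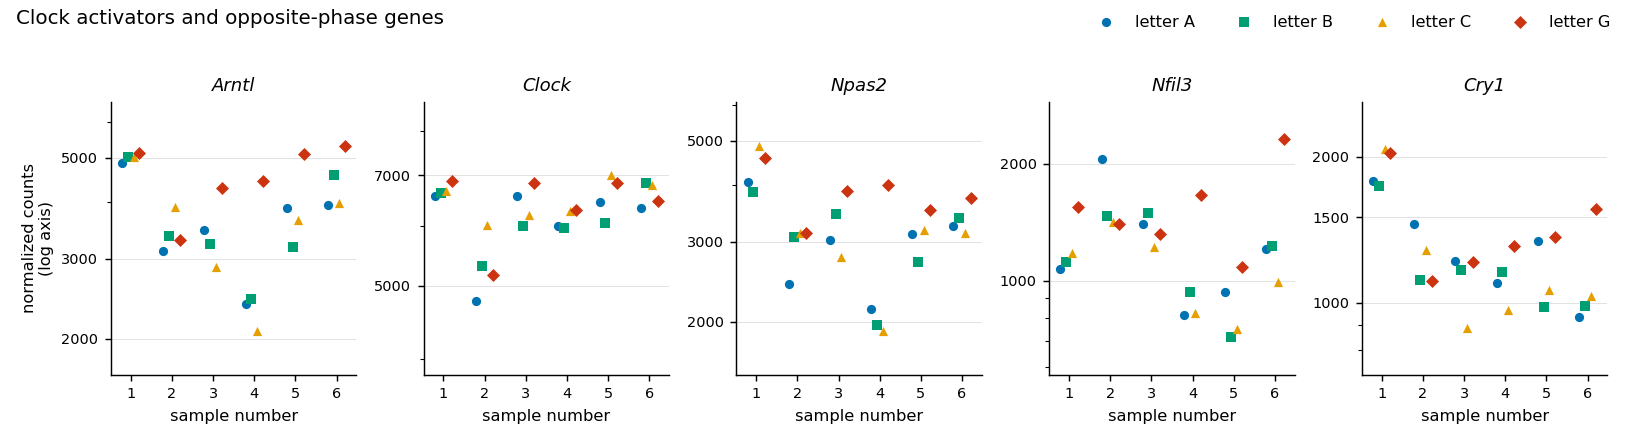
Normalized counts (log axis) of 5 clock activators and opposite-phase genes against the sample number, 1 point per sample by letter. Arntl and Npas2 are lowest in A4, B4 and C4, while G4 stays at 4443 for Arntl and 4006 for Npas2.

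Each sample was described by the log2 deviation of Nr1d1 from its mean over the 24 samples minus that of Arntl. This difference was highest in C4 (3.08), then A4, then B4 (2.46), and next in C3 (1.76). It was lowest in the samples numbered 1, between -2.31 and -1.95, and in G5 (-1.85) and G6 (-1.52). The remaining 14 samples lay between -1.13 in A2 and 0.98 in A6, with G4 at 0.41. The first 4 samples had high Nr1d1 with low Arntl, and the samples numbered 1, G5 and G6 had the reverse. In G4 both Nr1d1 and Arntl lay above their means, by 0.66 and 0.25. As background, the output genes peak on the opposite side of the day from Arntl. The difference describes levels, and whether it follows the place of a sample in the cycle was not tested.

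Samples with the same Nr1d1 did not all have the same Arntl. B5 and B6 had nearly equal Nr1d1 (5311 and 5496), but Arntl was 3185 in B5 and 4584 in B6, and Per2 was 1726 in B5 and 950 in B6. A second difference, Nr1d1 minus Per2, was also read, since Nr1d1 peaks ahead of Per2. The deviations were not scaled: those of Nr1d1 ran from -1.88 to 2.35 and those of Per2 from -0.68 to 1.33. The difference therefore follows the level of Nr1d1 in large part and is no separate measure of phase. This second difference was 1.13, 0.92 and 0.90 in A6, B6 and C6, and 0.38, 0.01 and 0.02 in A5, B5 and C5. In A4, B4, C4 and G4 it was 1.02, 0.60, 1.07 and 0.96. G4 was thus apart from A4, B4 and C4 on the first difference and not on the second. In C3 and G3 it was 1.09 and 0.77. The lowest values were those of G1 (-1.73), C1 and B1, followed by A2 (-1.18), A1 and G5 (-1.05), which are also the samples with the lowest Nr1d1. With no recorded hour or light schedule, and a single snapshot per sample, a shift in phase, a lower amplitude and fewer cells with a running clock cannot be told apart, and no clock hour was assigned.

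**Figure D4:**
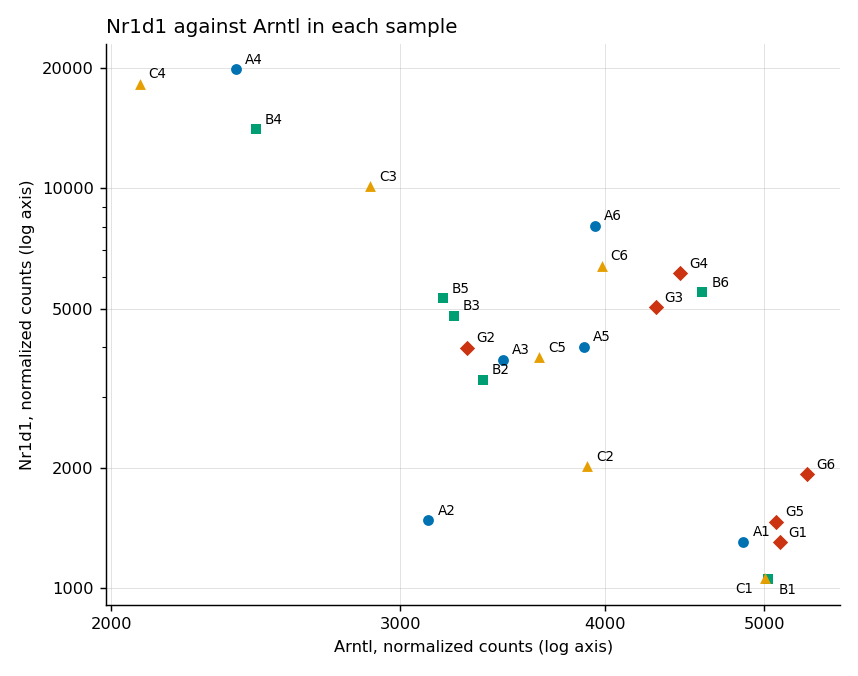
Normalized counts of Nr1d1 against Arntl in the 24 samples (both log axes), named by letter and number. C4, A4 and B4 sit at the upper left and the samples numbered 1 with G5 and G6 at the lower right. A2 has low Nr1d1 (1480) with Arntl at 3121.

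Among 15905 other genes with a mean of at least 100 normalized counts, the patterns most like the mean log2 deviation of the 10 genes were those of Specc1 (r = 0.91 over 24 samples), Myrip (0.88), Wnk2 (0.87), Ube2o (0.85) and Bsdc1 (0.83). Without the samples numbered 4 these r were 0.77, 0.83, 0.77, 0.63 and 0.59 over 20 samples. The most opposite were Adam12 (-0.85), Cstf2 (-0.85), Slc28a3 (-0.82), a row whose name had been turned into a date (-0.82) and Adgre1 (-0.81), with Arntl at place 6 (-0.81). The r values describe these 24 samples, which share letters and numbers.

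Further genes of the loop were followed too. Of 11 further loop and output genes, 8 passed the number test (limma adjusted p under 0.05; 31.5% of all genes). In number 4, 3 of the 11 were higher (2.72% of all genes) and 0 lower: Cry2, a repressor of the activator pair, by 0.41 on the log2 scale (limma adjusted p = 0.00891), Usp2, a deubiquitinase with a daily rhythm in many tissues, by 0.48 (adjusted p = 0.0276), and Tspan4, named here after its values were seen. Cry2 had 3347, 3193 and 3381 normalized counts in A4, B4 and C4, 2168 in G4, and the call was lost without A4, B4 or C4 (adjusted p up to 0.0837). The Usp2 call was lost without A4 or B4, and that of Tspan4 when any 1 of 15 samples was omitted. In the number test, the Usp2 call was lost without B4, and that of Tspan4 when any 1 of 14 samples was omitted. Without a letter term the Tspan4 call was lost too (limma adjusted p = 0.188). In number 2, 6 of the 11 were lower (10.3% of all genes), among them Rora, an activator of Arntl that competes with REV-ERB, by -0.39 (limma adjusted p = 0.00234), and Cry2 by -0.35 (adjusted p = 0.00634). Another 2 were higher (11.5%), Bhlhe40, the relative of Bhlhe41, by 0.52 (limma adjusted p = 0.00251), and Nampt, named after its values were seen. Without A2 the calls of Csnk1e, Usp2, Tsc22d3 and Nampt in number 2 were lost; that of Usp2 was also lost without B2, and that of Nampt without C2.

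Chaperone and temperature responsive genes also differed by number, and there G4 went with its number. Of 7 such genes, 5 were higher in number 4 (2.72% of all genes), among them Hsph1 by 0.97 (SE 0.13, limma adjusted p = 0.000255) and Hspa8, the constitutive HSP70, by 0.74 (SE 0.10, adjusted p = 0.000266). Hspa8 had 61643, 68291, 56939 and 69687 normalized counts in A4, B4, C4 and G4, and Hsph1 had 11715, 12627, 9067 and 15368. For both, G4 was the highest of the 4 samples. For Hspa8, A3 (59758) and G2 (58789) lay above C4, and for Hsph1, A3 (10325) and G3 (9391) did. Dnajb1, a co-chaperone, was higher by 0.41 (adjusted p = 0.00403, limma). Hspa1a and Hspa1b, near-identical copies whose reads may be split between them, were the other 2, and the Hspa1a call, named after its values were seen, did not survive the omission of any 1 of 14 samples. In number 6, Hsph1, Hspa8 and Dnajb1 were lower (4.02% of all genes; Hsph1 by -0.92, Hspa8 by -0.69 and Dnajb1 by -0.35, limma adjusted p = 0.000230, 0.000278 and 0.00752), and the cold-inducible RNA-binding genes Cirbp and Rbm3 were higher (4.11%; by 0.50 and 0.42, adjusted p = 0.00970 and 0.0134). Leaving out A6 or B6 lost the calls of Dnajb1, Cirbp and Rbm3 in number 6, and leaving out C6 that of Rbm3.

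Glucocorticoid responsive genes were followed because Per1 is one of their kind. By letter, 0 of 9 passed and 1, Sgk1, was at an unadjusted p under 0.05 in the limma F test (0.00652% and 3.91% of all genes). That fit has no term for the number. With the number as a replicate block, none of the 9 was among the 12 genes that passed, and their unadjusted p there is not given. Sgk1 had 38.2% of its variance between letters and Klf9 24.6%, and the rest lay between 0.610% and 12.3%. Sgk1 ran from 6278 to 11032 in A, 8011 to 12151 in B, 7223 to 11137 in C and 8486 to 11371 in G. Calls by number fell in numbers 1, 2, 3 and 6. Of 9, 1 was higher and 2 were lower in number 1 (5.62% and 6.25% of all genes), 3 were higher and 1 lower in number 2 (11.5% and 10.3%), and 2 were higher and 0 lower in number 6 (4.11% and 4.02%). In number 2 these were the metallothionein genes Mt1 (by 0.93, limma adjusted p = 0.000756) and Mt2 and the lipase inhibitor gene Angptl4, all higher, and Klf9, lower by -0.69 (adjusted p = 0.000388). The Mt2 call in number 2 was lost when any 1 of 15 samples was omitted, and the Angptl4 call there without A2 or G2. In number 3, 3 were higher (2.89% of all genes) and 0 lower: Fkbp5, a chaperone of the receptor, by 1.88 (SE 0.31, limma adjusted p = 0.00127), Zbtb16, named after its values were seen, by 2.75 (adjusted p = 0.0266), and Klf9 by 0.66 (SE 0.12, adjusted p = 0.00288). Fkbp5 had 4810, 7351 and 13556 normalized counts in A3, B3 and C3, and 3079 in G3, where G1 and G2 were as high (3096 and 3256). Zbtb16 had 4050 in G1 and 14969 in G2 beside 453 to 724 in the other letters of numbers 1 and 2, and its call was lost without B3, C3 or G3. In number 4, 0 of the 9 were called (2.72% of all genes higher, 2.02% lower), and in number 5, 0 (0.880% and 1.09%). Yet Zbtb16 had 14773, 5270 and 11543 in A4, B4 and C4 and 3883 in G4, and also 5238 in A6 and 4465 in B6. Fkbp5 had 3831, 3141 and 3101 in A4, B4 and C4 and 1926 in G4. Number 3 was also where Bhlhe41 was highest, and Per1 was not set apart there, at 11743, 23162, 19353 and 20126 in A3, B3, C3 and G3. The immediate early genes Fos, Fosb, Junb, Egr1 and Ier2, 5 of 6 tested, were higher in number 6 (4.11% of all genes; limma adjusted p from 0.00573 for Fosb to 0.0488 for Ier2). The Ier2 call did not survive the omission of any 1 of 19 samples, those of Fos and Egr1 the omission of A6, B6, C6 or G6, or that of Junb the omission of A6, B6 or G6. Fos had 5337, 6026, 4647 and 5070 in A6, B6, C6 and G6, but C4 (7621) and A5 (5951) were also high, while Nr1d1 and Arntl in G6 differed from the other 3 as given above.

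**Figure D5:**
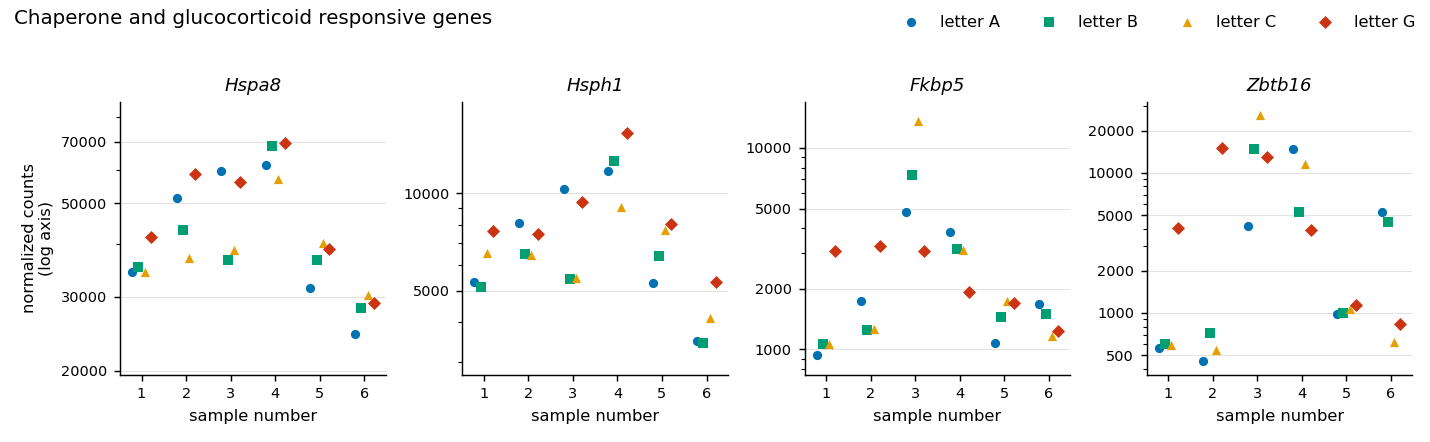
Normalized counts (log axis) of 2 chaperone genes and 2 glucocorticoid responsive genes against the sample number, 1 point per sample by letter. For Hspa8 and Hsph1, G4 (69687 and 15368) is the highest of the samples numbered 4. A3 and G2 also have high Hspa8 (59758 and 58789), and A3 and G3 high Hsph1 (10325 and 9391). Fkbp5 is highest in C3 at 13556.

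Markers of other cells moved with some of these samples. The summed skeletal muscle markers Acta1 and Ckm were 50255 in A4 and 13045 in B4, but 853 in C4 and 891 in G4, where the other 20 samples lay between 536 and 2149. The squamous epithelium markers Krt13 and Krt4 summed to 12848 in A4, 257 in B4 and 173 in C4 and to 327 in G4, beside 170 to 304 in the other 20. The cardiac muscle markers Myh6 and Tnnt2 summed to 23845 in A4, 4130 in B4, 39.8 in C4 and 2277 in G4, beside 43.5 to 11545 in the other 20. C4, with skeletal muscle and squamous markers in the range of the other samples, had Dbp at 3617 and Nr1d1 at 18275, as high as A4 and B4. The club cell markers Scgb1a1 and Scgb3a2 summed to 660008 in B4 and 597856 in G4, above the highest of the other 20 (588399), and to 574505 and 558201 in A4 and C4. The endothelial markers Pecam1 and Cldn5 summed to 122188 in G4, above the highest of the other 20 (110360), and to 78155 to 87702 in A4, B4 and C4. The red blood cell markers Hba-a1, Hba-a2 and Alas2 summed to 545043, 409717 and 406362 in A4, B4 and C4 and to 77411 in G4, beside 62662 to 431893 in the other 20. The highest of those 20, A6, had Nr1d1 at 8074, above every sample except A4, B4, C4 and C3. The next highest, A5 and C5 (371091 and 363400), had Nr1d1 at 4017 and 3785. C3 had Nr1d1 at 10146 with a red blood cell sum of 170330. The part of these other cells in the clock gene levels was not tested. None of the markers named in this paragraph was at 0 in any sample. In bulk tissue, fewer cells that express a gene and less RNA of it per cell cannot be told apart.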

How the data were processed

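Gene expression was measured by mRNA sequencing of lung tissue in 24 samples. The authors deposited 1 table, whose signal values have the form of normalized counts; per the submitters' processing notes, STAR and the mouse build GRCm38 were used, while the counting tool, the annotation and the normalization are not given in the sources used here. Rat reads aligned to a mouse build may be lost where the genomes differ, which affects comparisons between genes more than between samples, and no level was compared between genes. No constant step per sample turned nearly all low values into whole reads, so tests for raw counts were not used. The number of reads per sample is unknown and no counting interval is given.

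Samples were grouped by the letter and the number of their titles. A linear model on log2(value + 1) was fitted with limma-trend (limma 3.58.1, R 4.3.3) to all 30667 genes, which all passed a mean of at least 0.5. The letter test was an F test with 3 degrees of freedom; the number test had 5, with the letter as a covariate, and each number was set against the mean of the other 5. P-values are two-sided and adjusted over all genes by the Benjamini-Hochberg method, threshold 0.05. The fits were tested on simulated data. The genes and lists were chosen with earlier results of these data known, and of each list at most 6 genes were given with values, those with the smallest p in the number test, except all 5 opposite-phase genes and those said to be named after their values were seen. The opposite-phase list held 1 further gene, which is not reported here and enters none of its counts. The 5 genes most like and the 5 least like the mean of the 10 were named. Alternatives were quantile normalization, scaling to the 75th percentile, a pseudocount of 0.1, a mean of at least 10, no filter, the number as a replicate block, no letter term, and each sample left out; leaving out the 4 samples numbered 4 was chosen after seeing the data.

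Promoter sequences are from RefSeq, build GRCr8, matched by symbol (Arntl as Bmal1) and used for their letters only. Figures were drawn with matplotlib 3.10.9 in Python 3.11.15.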

Additional observations from a re-analysis of the deposited data

Results flagged for a closer look

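Among the 6 samples of a letter, the top or bottom value was picked out where the distance to its neighbour, divided by the whole range, passed Dixon's 95% critical value. This happened for 13 values in 40 groups. Chance flags about 1 in 20 groups, but these genes were chosen with the values in view, so the number picked out is a description and not a test. Of the 13, 12 belonged to the samples numbered 4, and a gene that moves with another is not a separate observation. Dbp was picked out in A4 (3574 normalized counts), B4 (3198) and C4 (3617), where the next samples of those letters had 887, 1159 and 1195. Per2 was picked out in the same samples, at 3199, 3036 and 2861, with the next at 1207, 1726 and 1562. Ciart was picked out there too, at 174, 177 and 158, with the next at 79.9, 86.8 and 77.5. Nr1d1 was picked out in A4 (19850, next 8074) and B4 (14053, next 5496), and Per3 in A4 (4076, next 1896). The value outside number 4 was Bhlhe41 in A3, at 2879 where the next A sample had 1621.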

How the results depend on the processing

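The count of genes in the letter test, 2, became 1 under quantile normalization, under scaling to the 75th percentile and without the 4 samples numbered 4, and 12 with the number as a replicate block, where 0 of the 10 clock genes and 0 of the 5 opposite-phase genes passed (4 and 3 at an unadjusted p under 0.05, as were 9.74% of all genes). The block is not shown to pair samples by any label: the correlation of same-number deviations from the letter means lay between -0.045 and 0.654 over 36 pairs of samples, 6 of them at or below 0.1, and 22 of 24 samples correlated best with a sample of their own number. Leaving out 1 sample gave 1 to 2 genes in the letter test (1 in 20 of the 24 fits) and 8528 to 10210 in the number test. For the single numbers the 24 such fits gave 1917 to 4100 genes for number 1, 3542 to 7111 for number 2, 543 to 2049 for number 3, 383 to 1976 for number 4, 2 to 891 for number 5 and 747 to 2999 for number 6. The full fits gave 3638, 6691, 1527, 1454, 604 and 2494. Counts fell by more than 1.5 times without A1, B1 or C1 (number 1), A2 (number 2), A3, B3 or C3 (number 3), A4 or B4 (number 4), A5, B5, C5 or G5 (number 5) and A6, B6 or C6 (number 6), each of which leaves its own number with fewer samples. Without the 4 samples numbered 4, an alternative chosen after seeing the data, number 5 had 1288 genes against 604, and the cause was not tested. No opposite-phase call changed direction under the alternatives run. Calls of genes outside the 10 that a scaling, the pseudocount or the letter term ended were those of Nfil3, Sgk1, Tsc22d3, Hspa1a, Tspan4, Ier2, Mt1 and Mt2 in single numbers. The log2 differences of the 10 genes for numbers 1 and 4 and for letter G changed sign in 9 of 910 alternative values, all in Ciart and Bhlhe41. Omitting the low-value filter removed and added no gene. DESeq2 was not run, since the table holds no raw counts. The unknown depth limits what can be said of low genes such as Ciart.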
